A study of Homo sapiens with 9 samples.

Results

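The 4 receptors of the epidermal growth factor receptor (EGFR) family and 3 genes grouped here as brakes on them were followed across 3 PIK3CA genotypes of the same breast epithelial cell line. The receptors are EGFR, ERBB2, ERBB3 and ERBB4, and the brakes are ERRFI1, LRIG1 and LRIG3. They were picked by name, through the gene identifiers of the count tables, and are 7 of the 60609 genes counted. MCF-10A cells are non-tumorigenic and of breast epithelial origin. PIK3CA encodes p110-alpha, the catalytic part of PI 3-kinase, and E545K and H1047R are its helical-domain and kinase-domain hotspot changes.

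The groups were an E545K knock-in line, an H1047R knock-in line and the parental line (WT), with 3 RNA libraries each. The knock-in lines, from a published isogenic model, were maintained without EGF (0 ng/ml) and the parental line with 20 ng/ml, and all were otherwise kept in 5% horse serum with insulin (10 µg/ml), cholera toxin (100 ng/ml) and hydrocortisone (0.5 µg/ml). For the 24 h before RNA was taken, every line was held with 0.2 ng/ml EGF and 1% stripped serum, with the same insulin, hydrocortisone and cholera toxin. EGF is a ligand of EGFR, and the effects of genotype and of the earlier EGF supply cannot be told apart. The labels do not say whether each knock-in line is 1 clone, nor whether replicate libraries came from separate cultures, and the p-values therefore reflect the variation among the libraries at hand, which could be purely technical. The study's stated aim was to evaluate transcription in isogenic cells that carry either change.

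EGFR and its relatives are receptor tyrosine kinases of the cell surface. A bound ligand lets them form pairs, and the phosphorylated tails recruit adaptors that feed RAS and PI 3-kinase signalling. ERBB2 binds no known ligand and acts as a partner, while ERBB3 has a weak kinase and recruits PI 3-kinase directly. ERRFI1 (also called MIG6) is a cytoplasmic feedback inhibitor that binds the kinase domain of active EGFR. LRIG1 is a transmembrane protein that promotes degradation of the receptors. LRIG3 is its relative and is grouped here with the brakes, which these data do not test.

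Total counts were 95533991 to 134245702 in E545K, 377093507 to 605972919 in H1047R and 95091894 to 136132315 in WT, with each mate of a pair counted. Levels are given as CPM, counts scaled to the library size. Where a gene had no count, up to 3 counts are allowed by counting error alone, or 0.00495 to 0.0316 CPM over the 9 libraries. The H1047R libraries stood apart: they were deposited in a table of their own, and protein-coding genes took 77.8% ± 0.246 of their counts, against 85.5% ± 0.321 in E545K and 86.0% ± 0.0519 in WT (SD, n = 3 each). Table and genotype cannot be told apart for H1047R, and the part of this makeup in the H1047R results was not tested. PIK3CA itself averaged 38.1 CPM in E545K, 42.7 in H1047R and 46.1 in WT, and counts per gene do not show the base change. All 8 basal epithelial markers checked (KRT5, KRT14, KRT17, TP63, CDH1, EPCAM, ITGB4 and LAMB3) averaged at least 1 CPM in every genotype, with a summed level of 25507 to 26036 CPM in E545K, 27637 to 31364 in H1047R and 30408 to 31043 in WT. Of 6 fibroblast, 5 endothelial and 5 leukocyte markers, COL1A1, KDR and CD68 alone reached 1 CPM. The summed fibroblast level was 59.0 to 62.0 CPM in E545K, 58.5 to 71.7 in H1047R and 47.7 to 48.5 in WT. The summed endothelial level was 10.5 to 12.2 CPM in E545K, 22.0 to 23.7 in H1047R and 8.46 to 10.3 in WT, and the leukocyte level was 6.71 to 7.44 in E545K, 4.51 to 6.33 in H1047R and 10.9 to 11.4 in WT. The summed level of 5 luminal markers (ESR1, FOXA1, GATA3, TFF1 and PGR) was 34.5 to 35.1 CPM in E545K, 56.9 to 59.7 in H1047R and 35.5 to 52.5 in WT. The part of these markers in the results was not tested. In bulk RNA, fewer cells of a type and less RNA per cell cannot be told apart.

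The promoters of the 3 genes that were higher in E545K than in WT, and that lie on different chromosomes, are shown because all 3 rose in that line. Each run is the 250 bases before the RefSeq start site, 5′ to 3′ on the gene's strand (GRCh38.p14), with matches to the motifs searched in capitals. The last 18 bases of the LRIG3 window lie inside the gene as the count tables place it.
EGFR, chr7:55018767-55019016, plus strand: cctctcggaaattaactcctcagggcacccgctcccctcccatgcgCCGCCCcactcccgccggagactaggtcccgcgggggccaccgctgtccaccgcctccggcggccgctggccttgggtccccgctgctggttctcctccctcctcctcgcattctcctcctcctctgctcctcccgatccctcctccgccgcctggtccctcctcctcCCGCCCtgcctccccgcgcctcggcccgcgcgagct
ERRFI1, chr1:8026310-8026559, minus strand: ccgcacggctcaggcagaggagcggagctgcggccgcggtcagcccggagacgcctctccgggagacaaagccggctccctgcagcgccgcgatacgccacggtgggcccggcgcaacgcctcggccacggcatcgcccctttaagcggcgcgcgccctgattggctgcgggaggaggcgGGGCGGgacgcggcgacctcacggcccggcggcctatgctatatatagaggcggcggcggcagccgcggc
LRIG3, chr12:58920505-58920754, minus strand: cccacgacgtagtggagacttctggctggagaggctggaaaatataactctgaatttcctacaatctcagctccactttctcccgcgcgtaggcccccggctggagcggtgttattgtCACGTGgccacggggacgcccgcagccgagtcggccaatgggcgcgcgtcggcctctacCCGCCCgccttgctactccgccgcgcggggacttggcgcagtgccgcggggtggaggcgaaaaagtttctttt

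The capitals in these windows are GC boxes (GGGCGG or its reverse complement), 2 in EGFR and 1 in each brake, and a single E-box (CACGTG) in LRIG3. A GC box stood in 42.6% of the 35116 windows of the same length in the RefSeq table, and an E-box in 6.34%. The other motifs searched on both strands had no match in these 3 windows, namely the TATA box (TATAAA, 10.7% of windows), the FOXO site (TGTTTAC, 2.98%), the AP-1 site (TGANTCA, 6.57%), the ETS site (CCGGAAGT, 3.42%) and the serum response element (0.0313%). No match overlapped another. GC content was 73.6% for EGFR, 75.2% for ERRFI1 and 63.2% for LRIG3, beside a median of 58.0% over all windows. Of the 7 genes 6 had a window in the table, and ERBB3 had none. These matches describe letters in a window and say nothing of what binds there.

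Levels of different genes were compared as CPM per kb of merged exons, which divides by every annotated exon base and so understates genes with many alternative exons. EGFR was the most abundant of the 7 in each genotype, at 82.2 ± 0.256 CPM per kb in E545K, 58.9 ± 1.68 in H1047R and 58.6 ± 0.279 in WT (SD, n = 3 each). By the same scale its level exceeded that of 98.4% of the 19905 protein-coding genes in E545K, 97.7% in H1047R and 97.3% in WT. In E545K the order of levels per kb was EGFR, ERRFI1, ERBB2, LRIG3, ERBB3, LRIG1 and ERBB4. In H1047R and in WT, ERBB3 stood above LRIG3 and the order was otherwise the same. Mean ± SD of neighbours in the order did not overlap in any genotype, and the closest pair was ERRFI1 and ERBB2 in WT, at 20.0 ± 0.25 and 19.1 ± 0.168 CPM per kb. ERBB4, the lowest, had 0.0758 ± 0.0158 CPM per kb in E545K, 0.0526 ± 0.00672 in H1047R and 0.0665 ± 0.0171 in WT.

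**Figure D1:**
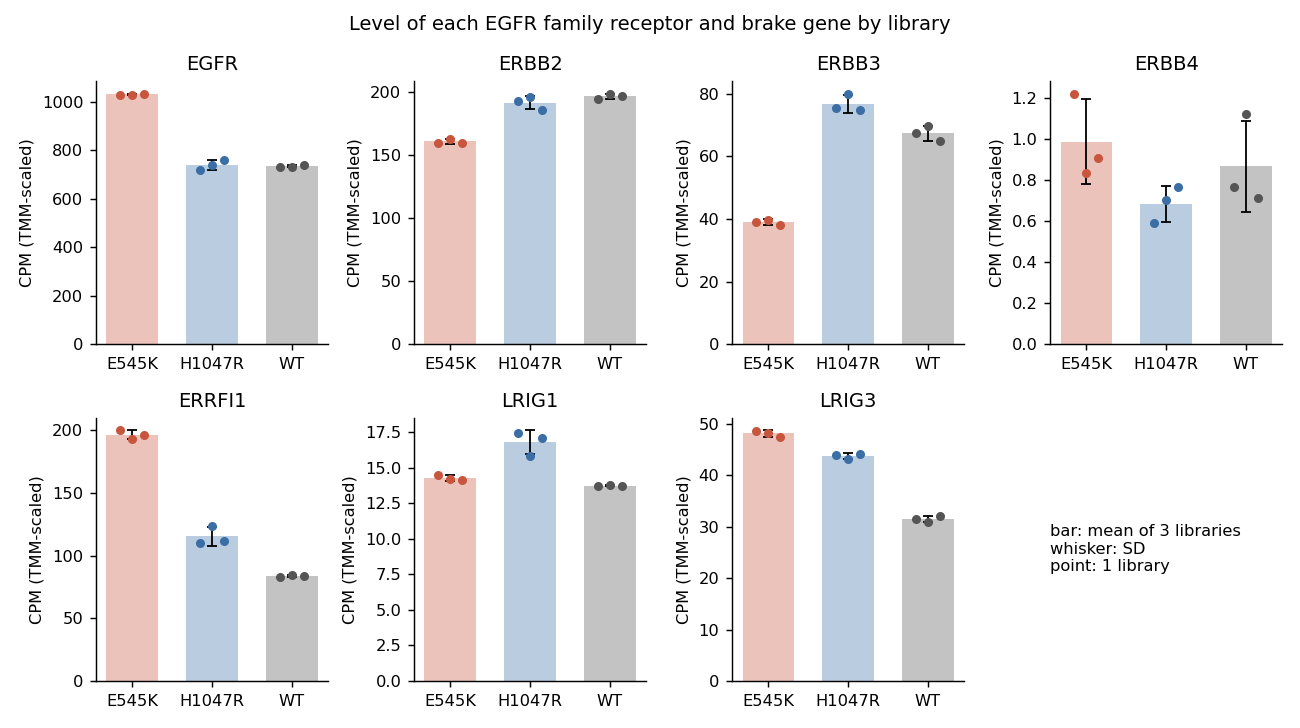
CPM scaled to the TMM-adjusted library size (y axis, linear from 0, a separate scale for each gene) in E545K, H1047R and WT, with each library as a point, the mean of 3 libraries as a bar and the SD as a whisker. The E545K points of EGFR, ERRFI1 and LRIG3 lie above all others of their panel, those of ERBB2 and ERBB3 lie below, and the WT points of ERBB4 overlap those of both knock-in lines near 1 CPM.

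All 7 genes passed the filter on low counts, and 26412 genes were tested in 1 edgeR quasi-likelihood model with Benjamini-Hochberg adjustment, a gene being called at an adjusted p under 0.05. In E545K against WT, 5 of the 7 were called, where 36.6% of all genes were called. EGFR, ERRFI1 and LRIG3 rose, against 17.7% of all genes called higher. ERBB2 and ERBB3 fell, against 18.9% called lower. In H1047R against WT, 4 were called (ERBB3, ERRFI1, LRIG1 and LRIG3, all higher), where 55.5% of all genes were called and 27.4% were called higher. Between H1047R and E545K, 6 were called, where 53.2% of all genes were. ERBB2, ERBB3 and LRIG1 were higher there, beside 25.9% of all genes called higher, and EGFR, ERRFI1 and LRIG3 were lower, beside 27.3% called lower. The median absolute log2 fold change of the 7 was 0.489 in E545K against WT, 0.286 in H1047R against WT and 0.48 in H1047R against E545K, beside 0.2655, 0.4111 and 0.3778 over all genes in the same 3 comparisons. Each pair of comparisons shares a genotype, so their values for a gene are not independent. Libraries of the 2 genotypes compared did not overlap for 6 of the 7 genes in E545K against WT, beside 54.2% of all genes tested. In H1047R against WT this held for 4 of the 7, beside 60.1% of all genes. In H1047R against E545K it held for all 7, beside 58.8%.

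Scaling by library totals in place of TMM moved the median log2 fold change of all genes in H1047R against E545K to -0.119, beside 0.0156 with TMM. The share of calls that were higher became 66.1% in E545K against WT, beside 48.3% with TMM, and 33.2% in H1047R against E545K, beside 48.7%. It was 44.3% in H1047R against WT, beside 49.4%.

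EGFR, the receptor for EGF, TGF-alpha and amphiregulin, had 1027, 1029 and 1033 CPM in the E545K libraries, 717, 739 and 759 in H1047R and 732, 731 and 738 in WT. Every E545K library lay above every library of the other genotypes, while the H1047R values spanned those of WT. For E545K against WT its log2 fold change was 0.49 ± 0.0357 (SE, edgeR adjusted p = 5.1e-08), which is 1.40-fold. For H1047R against WT the log2 fold change was 0.01 ± 0.0356 (95% interval -0.067 to 0.085, edgeR adjusted p = 0.85), and without H1047R replicate 3 it was -0.0063. Set against E545K, H1047R had a log2 fold change of -0.48 ± 0.0357 (edgeR adjusted p = 3.24e-08). The antisense RNA EGFR-AS1 shares 1.485% of the exon bases of EGFR on the opposite strand, and counting did not use strand. The shared bases are 6.629% of the exon bases of EGFR-AS1, and reads over them were counted for both genes. The part of EGFR reads in the count of EGFR-AS1 was not tested. EGFR-AS1 averaged 46.0 ± 1.61 CPM in E545K, 31.4 ± 2.57 in H1047R and 33.2 ± 0.303 in WT (SD, n = 3 each), and its log2 fold change in E545K against WT was 0.47 ± 0.0552 (edgeR adjusted p = 7.92e-06).

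EGFR (ENSG00000146648.18) lies on the plus strand of chr7:55019017-55211628 (hg38), on the short arm, where most genes were higher in E545K. Among the 427 other tested genes of chromosome 7 that start between 0 and 60 Mb, 385 had a log2 fold change above 0 in E545K against WT, 288 were called higher and 8 lower, and the median was 0.767. The log2 fold change of EGFR minus that median was -0.278, and 113 of the 427 genes had a smaller log2 fold change than EGFR. With each E545K library set against the mean of the 3 WT libraries, EGFR minus the region's median was -0.28, -0.281 and -0.271 (log2). Beyond 60 Mb the median log2 fold change of 867 genes was -0.040, and over 25117 genes outside chromosome 7 it was -0.001. The part of the region's shift in the value of EGFR was not tested.

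All 28 other genes tested within 5 Mb had log2 fold changes above 0 in E545K against WT, with a median of 0.815, and 2 of them were below EGFR. The nearest tested protein-coding genes upstream, which were GRB10 (an adaptor), COBL (an actin nucleator) and SEC61G (a subunit of the translocation channel), had log2 fold changes of 0.69, 0.68 and 1.11 in E545K against WT. Those downstream, LANCL2, VOPP1 and ENSG00000249773, had 1.03, 0.75 and 0.68, and all 6 were called higher by edgeR. In H1047R against WT the 427 genes had a median log2 fold change of 0.147, with 157 called higher and 101 lower, and EGFR minus that median was -0.138. Between H1047R and E545K the median was -0.661, with 34 called higher and 269 lower, and EGFR minus that median was 0.181.

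**Figure D2:**
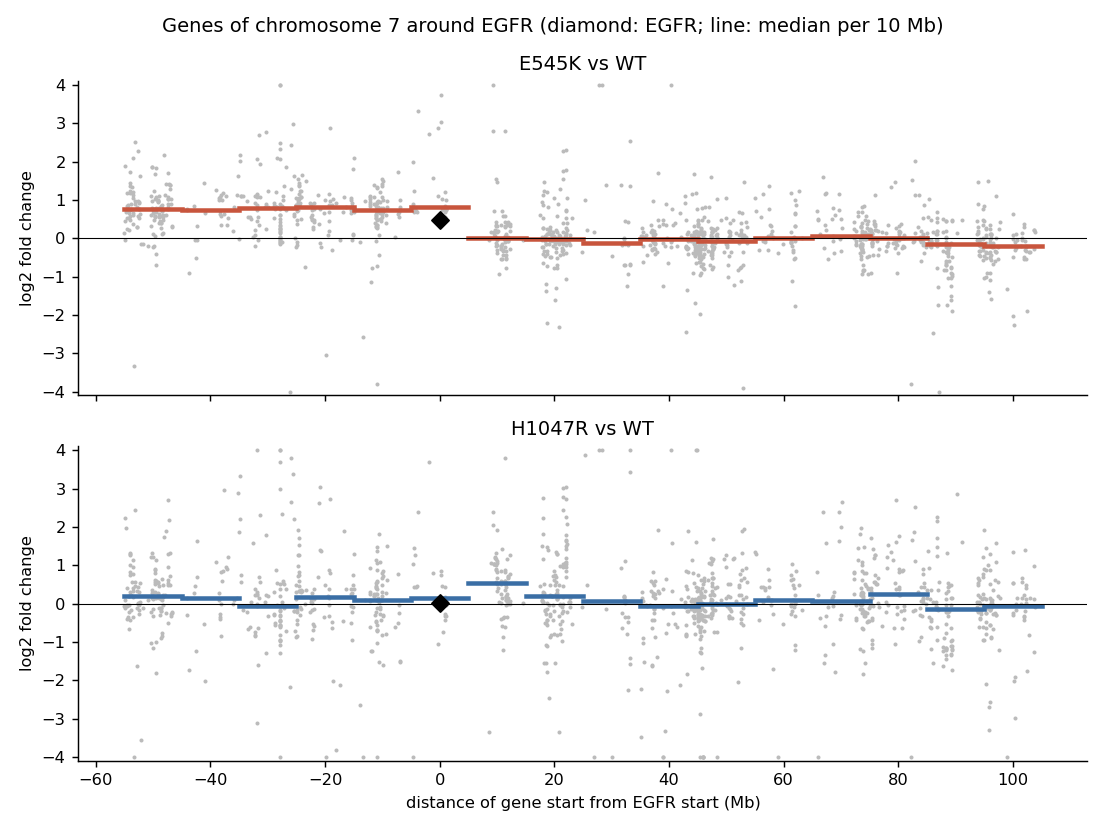
Log2 fold change (y axis) of each tested gene of chromosome 7 against the distance of its start from that of EGFR in Mb (x axis), in E545K against WT (upper) and H1047R against WT (lower), with the median per 10 Mb as a line, EGFR as a diamond and values past 4 in size drawn at the edge. In E545K the medians up to about 5 Mb past EGFR lie near the region's 0.767 and EGFR, at 0.49, lies under them, while beyond 60 Mb of the chromosome they lie near 0.

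Around the other 6 genes, medians in E545K against WT lay between -0.145 and 0.038. Within 5 Mb on each side, the median log2 fold change was -0.056 over 260 genes around ERBB2, -0.108 over 248 genes around ERBB3 and -0.145 over 63 genes around ERBB4. It was -0.002 over 144 genes around ERRFI1, 0.038 over 46 around LRIG1 and -0.035 over 181 around LRIG3. The log2 fold change of ERRFI1 exceeded that of 139 of its 144 neighbours, that of LRIG3 exceeded 156 of 181, and 11 of the 248 neighbours of ERBB3 were lower than ERBB3.

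ERBB2 (ENSG00000141736.13, chr17:39687914-39730426, plus strand), the partner receptor also known as HER2, had 160, 163 and 160 CPM in E545K, 193, 196 and 186 in H1047R and 195, 199 and 197 in WT. The E545K libraries were below all others. ERBB2 fell in E545K against WT, with a log2 fold change of -0.29 ± 0.0364 (edgeR adjusted p = 1.57e-05). For H1047R against WT its log2 fold change was -0.04 ± 0.0362 (95% interval -0.117 to 0.039, edgeR adjusted p = 0.386). That value became -0.08 with library totals, where it was called (edgeR adjusted p = 0.0315), and turned positive with upper-quartile scaling (0.0167) or when protein-coding genes alone were scaled and tested (0.0297). Over all alternatives its adjusted p in edgeR or the other tools was 0.0315 to 1. ERBB2 was higher in H1047R than in E545K by 0.25 ± 0.0363 (log2, edgeR adjusted p = 3.4e-05), and by 0.12 with library totals, where it was still called (edgeR adjusted p = 4.76e-03). PGAP3 and MIEN1, on the opposite strand, share 6.928% of the exon bases of ERBB2, and their log2 fold changes in E545K against WT were -0.20 and -0.30. The shared bases are 3.979% of the exon bases of PGAP3 and 28.03% of those of MIEN1. Reads over them were counted for each gene without regard to strand, so the values of these genes are not independent of ERBB2.

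ERBB3 (ENSG00000065361.15, chr12:56076799-56103505, plus strand), the family member that docks PI 3-kinase, had the largest called changes of the receptors. It had 39.0, 39.8 and 38.1 CPM in E545K, 75.4, 80.0 and 74.8 in H1047R and 67.3, 69.7 and 64.8 in WT. The 3 genotypes did not overlap, with E545K the lowest and H1047R the highest. ERBB3 fell in E545K to 0.579 of the WT level, a log2 fold change of -0.79 ± 0.0436 (edgeR adjusted p = 2.6e-09). It rose in H1047R against WT by 0.19 ± 0.0425 (log2, edgeR adjusted p = 1.43e-03), and the direct difference in H1047R against E545K was 0.98 ± 0.0432 (edgeR adjusted p = 1.18e-10), which is 1.97-fold. An overlapping gene without a symbol, ENSG00000257411, shares 0.343% of the exon bases of ERBB3.

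ERBB4 (ENSG00000178568.15, chr2:211375717-212538841, minus strand), a neuregulin receptor, was scarcely counted, with 67 to 404 counts in a library. It had 1.22, 0.833 and 0.907 CPM in E545K, 0.59, 0.70 and 0.763 in H1047R and 0.765, 1.12 and 0.711 in WT. WT overlapped both knock-in lines, and the H1047R libraries lay below those of E545K. The log2 fold change was 0.20 ± 0.227 in E545K against WT (95% interval -0.287 to 0.685, edgeR adjusted p = 0.547) and -0.33 ± 0.22 in H1047R against WT (95% interval -0.804 to 0.14, edgeR adjusted p = 0.221). Between the knock-in lines, H1047R against E545K, it was -0.53 ± 0.217 (95% interval -0.997 to -0.066, edgeR adjusted p = 0.0526). That last value passed the threshold without WT replicate 2 (-0.53, edgeR adjusted p = 0.0424), without E545K replicate 2 (-0.64, edgeR adjusted p = 0.0466), without H1047R replicate 3 (-0.61, edgeR adjusted p = 0.0364) and with library totals (-0.66, edgeR adjusted p = 0.0223). Over all alternatives the adjusted p in edgeR or the other tools was 0.0223 to 0.274.

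ERRFI1 (ENSG00000116285.13, chr1:8004404-8026309, minus strand) had the largest change of the 7 genes in E545K against WT. This inhibitor of the EGFR kinase had 200, 193 and 196 CPM in E545K, 110, 124 and 112 in H1047R and 82.9, 84.9 and 83.4 in WT. The genotypes did not overlap, and H1047R lay between E545K and WT. ERRFI1 rose 2.35-fold in E545K against WT, a log2 fold change of 1.23 ± 0.0473 (edgeR adjusted p = 5.56e-11). It rose in H1047R against WT by 0.46 ± 0.0466 (log2, edgeR adjusted p = 6.69e-07), which is 1.38-fold. The difference between the knock-in lines, H1047R against E545K, was -0.77 ± 0.0465 (log2, edgeR adjusted p = 3.47e-09). The long non-coding RNA ENSG00000284747, on the opposite strand, shares 3.709% of the exon bases of ERRFI1 and averaged 2.59 CPM in E545K, 2.03 in H1047R and 1.18 in WT. The shared bases are 3.766% of the exon bases of that RNA, and reads over them were counted for both genes.

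LRIG3 (ENSG00000139263.11, chr12:58872149-58920522, minus strand) was higher in both knock-in lines, with 48.7, 48.3 and 47.5 CPM in E545K, 44.0, 43.2 and 44.2 in H1047R and 31.5, 30.9 and 32.1 in WT. None of the groups overlapped. The log2 fold change of LRIG3 was 0.61 ± 0.0387 for E545K against WT (edgeR adjusted p = 1.04e-08) and 0.48 ± 0.0382 for H1047R against WT (edgeR adjusted p = 5.58e-08). LRIG3 was lower in H1047R than in E545K, at -0.14 ± 0.0377 (log2, edgeR adjusted p = 6.53e-03). That call was lost with upper-quartile scaling (-0.09, edgeR adjusted p = 0.0547), with no filter on low counts (-0.09, edgeR adjusted p = 0.166) and with protein-coding genes alone (-0.07, edgeR adjusted p = 0.088). With library totals the value was -0.27, and over all alternatives the adjusted p was 3.7e-05 to 0.166. No annotated exon of another gene overlapped LRIG3.

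LRIG1 (ENSG00000144749.13, chr3:66378797-66501263, minus strand) had 14.5, 14.2 and 14.1 CPM in E545K, 17.4, 15.8 and 17.1 in H1047R and 13.7, 13.8 and 13.7 in WT. The H1047R libraries were the highest, and the E545K and WT libraries did not overlap but lay within 1 CPM of each other. The log2 fold change was 0.06 ± 0.0535 in E545K against WT (95% interval -0.059 to 0.17, edgeR adjusted p = 0.469), and with library totals it was 0.15 and called (edgeR adjusted p = 0.0476, the lowest of all alternatives, which reached 0.744). LRIG1 rose by 0.29 ± 0.0519 in H1047R against WT (log2, edgeR adjusted p = 2.53e-04). LRIG1 was higher in H1047R than in E545K by 0.23 ± 0.0516 (log2, edgeR adjusted p = 1.58e-03), a call lost with library totals (0.09, edgeR adjusted p = 0.153, the highest of the alternatives, which began at 1.03e-04). SLC25A26, a gene of the opposite strand, shares 12.9% of the exon bases of LRIG1, and it too was higher in H1047R against WT, by 0.27 ± 0.0503 (log2, edgeR adjusted p = 3.48e-04). The shared bases are 15.5% of the exon bases of SLC25A26, and reads over them were counted for both genes. The part of either gene in the count of the other was not tested.

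**Figure D3:**
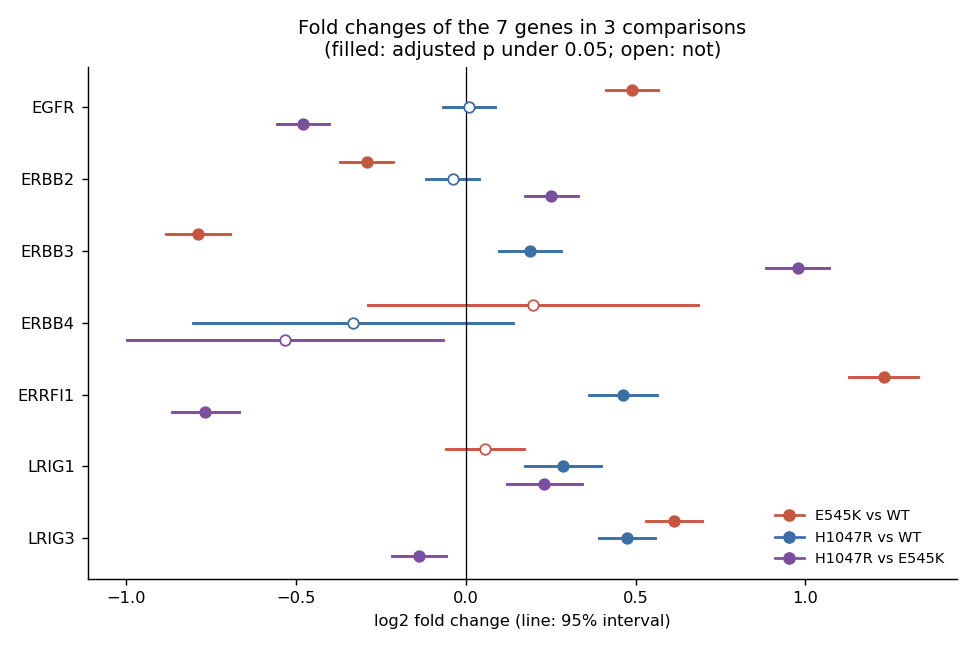
Log2 fold change (x axis) of the 7 genes (y axis) in E545K against WT, H1047R against WT and H1047R against E545K, with 95% intervals as lines, filled points for an edgeR adjusted p under 0.05 and open points for the rest. ERRFI1 in E545K against WT lies farthest from 0, at 1.23, and the ERBB4 lines are the widest.

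These shifts changed the balance among the receptors in E545K. EGFR made up 80.4% ± 0.202 of the summed receptor level per kb in E545K, 68.5% ± 1.02 in H1047R and 68.8% ± 0.408 in WT (SD, n = 3 each), and no E545K library overlapped the others. ERBB2 made up 15.3% ± 0.133 in E545K, 21.6% ± 0.737 in H1047R and 22.4% ± 0.123 in WT. ERBB3 made up 4.22% ± 0.086 in E545K, 9.87% ± 0.333 in H1047R and 8.74% ± 0.307 in WT, and ERBB4 less than 1% in each library. The ratio of EGFR to ERBB3 levels per kb was 19.1 ± 0.436 in E545K, 6.95 ± 0.335 in H1047R and 7.88 ± 0.323 in WT. With 3 libraries a group, an exact two-sided permutation test of such a value cannot give a p below 0.1, so these are described without one.

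Relative to EGFR, ERRFI1 stood highest in E545K, and LRIG1 and LRIG3 stood highest in H1047R. The ratio of ERRFI1 to EGFR levels per kb was 0.584, 0.561 and 0.57 in E545K, 0.459, 0.505 and 0.443 in H1047R and 0.34, 0.348 and 0.339 in WT, with no overlap between genotypes. The ratio of LRIG3 to EGFR per kb was 0.0994 ± 0.00166 in E545K, 0.126 ± 0.00383 in H1047R and 0.0913 ± 0.00133 in WT (SD, n = 3 each). The ratio of LRIG1 to EGFR per kb was 0.0247 ± 0.000463 in E545K, 0.0404 ± 0.0026 in H1047R and 0.0333 ± 0.000265 in WT. For the summed brakes over the summed receptors, it was 0.56 ± 0.011 in E545K, 0.435 ± 0.0156 in H1047R and 0.321 ± 0.00127 in WT. Most of the summed brake level was ERRFI1, with 47.0 of 57.2 CPM per kb in E545K, 27.6 of 37.4 in H1047R and 20.0 of 27.3 in WT.

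**Figure D4:**
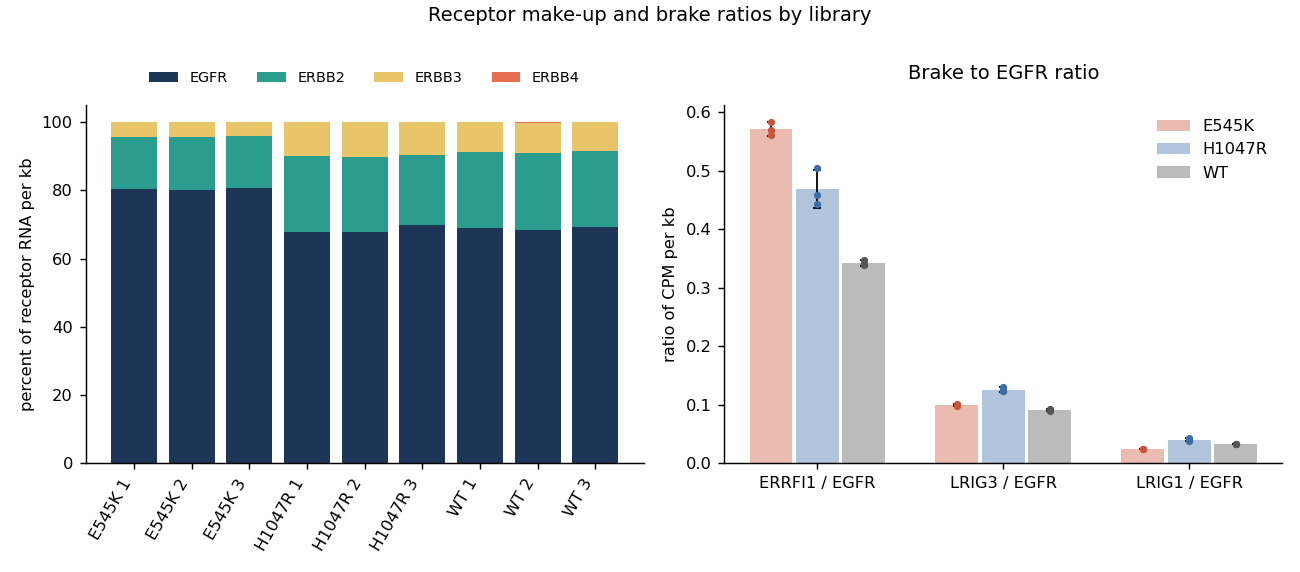
Left, percent of the summed receptor level per kb (y axis) taken by EGFR, ERBB2, ERBB3 and ERBB4 in each library (x axis); right, ratio of each brake to EGFR per kb (y axis) by genotype, with libraries as points, means as bars and SDs as whiskers. EGFR takes about 80.4% of each E545K bar and under 70% of the others, ERBB4 is barely visible, and the ERRFI1 ratio steps down over E545K, H1047R and WT.

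Other genes were ranked by how closely their log2 CPM, centred over the 9 libraries, followed that of each of the 7, as the root mean square difference over 12176 protein-coding genes with at least 1 CPM in every library. The closest to EGFR were RAPGEF5 (0.0336), also on chromosome 7, NEMP1 (0.0465) and MAFF (0.0483). For ERBB2 they were MGAT1 (0.0191), ATXN1L (0.0222) and NECAP2 (0.0245), and for ERBB3 they were ZBTB26 (0.0594), H1-2 (0.0632) and the adaptor gene GAB2 (0.0648). PLK2 (0.0543), GLT8D2 (0.0797) and MICALL2 (0.082) came closest to ERRFI1. CDK12 (0.022), NSD1 (0.029) and BPTF (0.0296) came closest to LRIG1, and RECQL4 (0.0413), ZNF12 (0.0437) and IRF1 (0.0452) to LRIG3. MICALL2 and ZNF12 also lie on chromosome 7. The 9 libraries fall into 3 genotypes, so the points share a genotype 3 by 3 and no p is given. ERBB4, under 1 CPM in some libraries, was not ranked.

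Several ligands of the receptors changed by more than any receptor did. Of the 11 ligand genes 10 were tested, and in E545K against WT 6 rose, 0 fell and 4 were not called, where 36.6% of all genes were called, and the median log2 fold change was 0.834 beside 0.003 over all genes. AREG (amphiregulin) averaged 18.7 ± 0.649 CPM in E545K and 1.65 ± 0.415 in WT (SD, n = 3 each), a log2 fold change of 3.47 ± 0.15 (edgeR adjusted p = 1.81e-10). HBEGF, the heparin-binding ligand, averaged 15.3 ± 0.5 CPM in E545K and 3.37 ± 0.208 in WT (log2 fold change 2.18 ± 0.0939). NRG4, a ligand of ERBB4, averaged 7.59 ± 0.145 CPM in E545K and 1.77 ± 0.0848 in WT (log2 fold change 2.10 ± 0.0837).

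In H1047R against WT 6 of the 10 ligands rose, 4 fell and 0 were left uncalled, where 55.5% of all genes were called, and the median log2 fold change was 0.644 beside 0.021 over all genes. EPGN (epigen) averaged 234 ± 23.8 CPM in H1047R, 140 ± 1.32 in E545K and 61.6 ± 2.13 in WT. Its log2 fold change was 1.92 ± 0.0618 in H1047R against WT and 1.185 ± 0.061 in E545K against WT. AREG, HBEGF and NRG4, which rose in E545K, also rose in H1047R against WT, by 0.63 ± 0.15, 0.65 ± 0.0921 and 1.43 ± 0.0818 (log2). NRG1, a ligand of ERBB3 and ERBB4, averaged 0.332 ± 0.019 CPM in H1047R and 2.16 ± 0.136 in WT (log2 fold change -2.70 ± 0.142). EREG (epiregulin), low in every library, averaged 0.0586 ± 0.0221 CPM in H1047R and 0.518 ± 0.0778 in WT (log2 fold change -3.13 ± 0.37). Relative to E545K, 2 ligands were higher in H1047R, 7 were lower and 1 was not called, where 53.2% of all genes were called, with AREG at -2.84 ± 0.133 and EPGN at 0.74 ± 0.0597 (log2).

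Of 10 genes linked to ligand shedding, the release of soluble ligands from their membrane precursors, 1 rose and 4 fell in E545K against WT. In H1047R against WT 2 rose and 6 fell, and in H1047R against E545K 3 were higher and 4 lower. Over all genes 36.6%, 55.5% and 53.2% were called in the same 3 comparisons. The list includes the inhibitor TIMP3, which fell in both knock-in lines, so the counts give no direction for shedding itself. TIMP3, an inhibitor of ADAM17, fell by 0.58 ± 0.0382 in E545K against WT (log2, edgeR adjusted p = 1.61e-08) and by 0.76 ± 0.0383 in H1047R against WT (edgeR adjusted p = 2.81e-10). FRMD8, which stabilises the iRhom proteins that carry ADAM17, averaged 79.9 ± 1.28 CPM in H1047R and 44.1 ± 0.353 in WT (log2 fold change 0.86 ± 0.0364). ADAM17 itself, the main sheddase, averaged 56.4 CPM in E545K, 60.1 in H1047R and 57.6 in WT and was called in none of the comparisons. It was named after its values were seen.

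Adaptors and proximal effectors, which couple the receptors to RAS, PI 3-kinase and other pathways, fell more often than they rose in E545K. Of 18, 2 rose, 11 fell and 5 were not called in E545K against WT, with a median log2 fold change of -0.163, where 36.6% of all genes were called and 18.9% were called lower. GAB2, a docking protein for PI 3-kinase, averaged 4.56 ± 0.249 CPM in E545K and 7.74 ± 0.623 in WT (log2 fold change -0.76 ± 0.0873). For H1047R against WT, 8 rose, 7 fell and 3 were not called, where 55.5% of all genes were called. The transcription factor STAT3 averaged 329 ± 11.9 CPM in H1047R, 213 ± 1.39 in E545K and 170 ± 2.77 in WT. Its log2 fold change was 0.96 ± 0.0385 in H1047R against WT and 0.33 ± 0.0384 in E545K against WT. VAV3 rose in both knock-in lines, by 0.44 ± 0.0445 in E545K against WT and by 0.69 ± 0.0442 in H1047R against WT (log2). VAV2 fell in both, with log2 fold changes of -0.21 ± 0.0384 in E545K against WT and -0.45 ± 0.0382 in H1047R against WT. Relative to E545K, H1047R had 11 higher and 5 lower, where 53.2% of all genes were called, and GRB7, an adaptor that binds ERBB2, was higher by 0.83 ± 0.0698 (log2).

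Among 22 genes for receptor ubiquitination and endocytosis, 3 rose and 8 fell in E545K against WT, and 8 rose and 8 fell in H1047R against WT. Over all genes 36.6% were called in E545K against WT and 55.5% in H1047R against WT. UBASH3B, a phosphatase that protects receptors from CBL-driven degradation, averaged 10.9 ± 0.466 CPM in E545K, 3.36 ± 0.367 in H1047R and 6.57 ± 0.309 in WT. It rose by 0.74 ± 0.0832 in E545K against WT and fell by 0.97 ± 0.0831 in H1047R against WT (log2). The direct difference in H1047R against E545K was -1.71 ± 0.0821 (log2, edgeR adjusted p = 2.81e-10). SH3KBP1, a CBL partner, averaged 43.9 ± 1.09 CPM in E545K, 20.2 ± 3.36 in H1047R and 43.8 ± 0.621 in WT. CBLB, a ubiquitin ligase of the receptors, fell in both knock-in lines. Its log2 fold change was -0.39 ± 0.0474 in E545K against WT and -0.42 ± 0.0466 in H1047R against WT. Of the 22, 9 were called in H1047R against E545K, 3 higher and 6 lower, where 53.2% of all genes were called, and 14 were called without H1047R replicate 3.

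Of 11 other brakes and phosphatases, 4 rose and 3 fell in E545K against WT, 6 rose and 2 fell in H1047R against WT, and 4 were higher and 3 lower in H1047R against E545K, beside 36.6%, 55.5% and 53.2% of all genes called in those comparisons. LRIG2, the relative of LRIG1 and LRIG3, averaged 20.6 ± 0.447 CPM in E545K, 27.9 ± 1.89 in H1047R and 24.2 ± 0.334 in WT, and was higher by 0.44 ± 0.0516 in H1047R against E545K (log2, edgeR adjusted p = 4.63e-06). SOCS3, an inhibitor of cytokine receptors, rose by 0.85 ± 0.116 in E545K against WT (log2, edgeR adjusted p = 3.36e-05). Called also in H1047R against WT, SOCS3 had 0.29 ± 0.113 (log2, edgeR adjusted p = 0.0411), and that call was lost without any one WT replicate (edgeR adjusted p = 0.0872, 0.0846 and 0.107 without WT replicates 1, 2 and 3), without E545K replicate 1 or 3 (0.0519 and 0.0573) and without H1047R replicate 1 or 2 (0.095 and 0.137). It was also lost under 5 other settings, and over all alternatives the adjusted p in edgeR or the other tools was 0.00221 to 0.137. PTPRK, a receptor phosphatase known to act on EGFR, averaged 176 ± 2.54 CPM in H1047R and 134 ± 2.14 in WT (log2 fold change 0.39 ± 0.0355). PTPRJ, of the same list, fell in H1047R against WT (log2 fold change -0.29 ± 0.079, edgeR adjusted p = 5.82e-03).

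**Figure D5:**
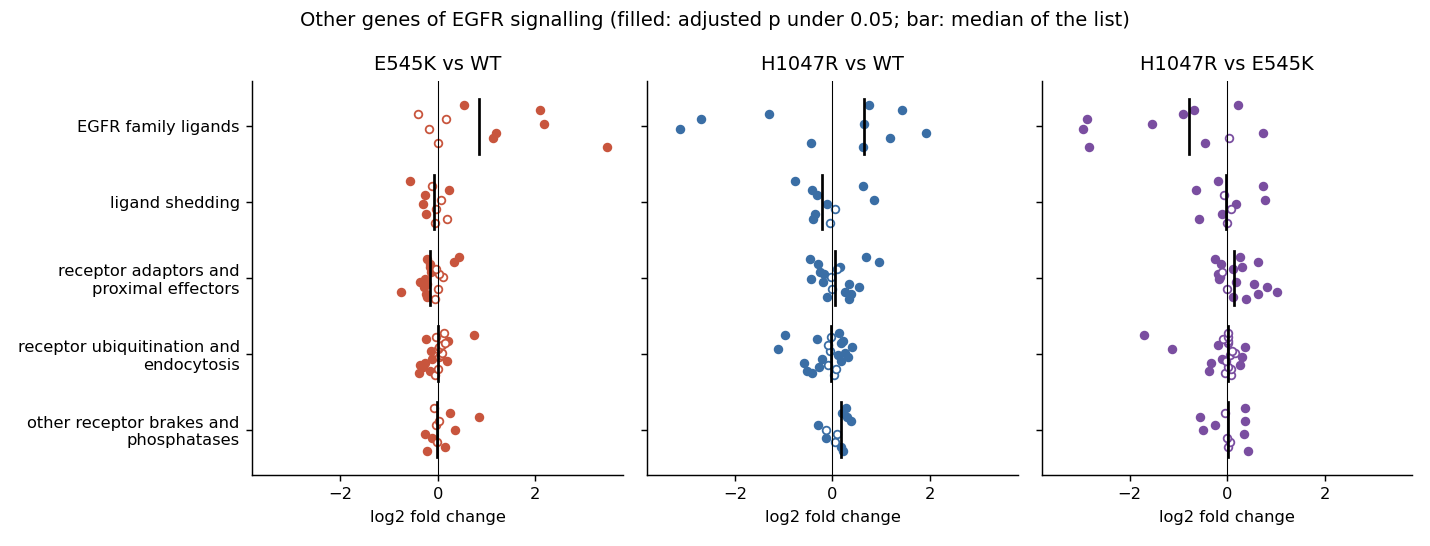
Log2 fold change (x axis) of each tested gene in 5 lists of EGFR signalling genes (y axis) in E545K against WT, H1047R against WT and H1047R against E545K, filled where the edgeR adjusted p was under 0.05, with the median of each list as a bar. The ligands spread from -0.41 to 3.47 in E545K against WT and from -3.13 to 1.92 in H1047R against WT. In H1047R against E545K they spread from -2.95 to 0.74, and in each panel they spread wider than any other list.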

How the data were processed

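RNA of 9 MCF-10A libraries was depleted of ribosomal RNA and sequenced as paired reads, per the labels' protocols. The deposited values are gene counts, made by the authors with featureCounts 2.0.0 on the GENCODE 32 annotation of hg38, per the file headers. Exons were the feature, a read overlapping several genes was counted for each, strand was ignored and the mates of a pair were counted singly, per the same headers. SAMtools 1.5, STAR, FastQC, cutadapt and Trim Galore 0.4.0 are further tools in the submitters' processing notes. Gene names came from GENCODE 44 through unversioned identifiers, 60295 matched and 314 not. The 9 count columns had no others beside them.

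The counts were tested in edgeR 4.0.16 (R 4.3.3) with filterByExpr, TMM scaling and a single quasi-likelihood fit of genotype to all libraries. CPM values use TMM-scaled library sizes. The SE is the log2 fold change divided by the square root of F. The biological coefficient of variation was 0.0282 within E545K, 0.216 within H1047R and 0.0322 within WT. The common value over all 9 libraries, with genotype fitted, was 0.118, larger than that of E545K or WT and smaller than that of H1047R. The SEs and p-values do not rest on this common value alone. The quasi-likelihood fit also estimates a spread for each gene, shared by the 3 genotypes. Alternatives were DESeq2 1.42.0, limma-voom 3.58.1, other scalings and filters, thinning, fits of 2 genotypes, a replicate block and leaving out each library. The fit was tested on simulated data with the same spread in all 9 libraries. That test cannot show how the fit handles genotypes of unequal spread. The 7 genes and the lists were chosen with earlier results of these data known. Genes named from a list were the 3 called genes with the largest change and 1 that went the other way, in each comparison, from which examples are given. Promoter sequences are from RefSeq (GRCh38.p14).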

Additional observations from a re-analysis of the deposited data

How the results depend on the processing

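Calls of the 7 genes numbered 5 to 6 in E545K against WT, 4 to 5 in H1047R against WT and 5 to 7 in H1047R against E545K over all alternatives. Against WT, each change called in E545K or H1047R kept its direction and its call. The log2 fold change of EGFR in H1047R against WT, not called, was -0.0323 with library totals, -0.0203 in the fit of those 2 genotypes alone and -0.0063 to 0.0322 without 1 library, and that of ERBB2 was 0.0167 with upper-quartile factors and 0.0297 with protein-coding genes alone. The cause of these sign changes was not tested.

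The difference between EGFR and the median of its region moved with the window. In E545K against WT it was -0.3254 with a window of 5 Mb and -0.2901 with protein-coding genes, and -0.2894 to -0.2544 without 1 library. In H1047R against WT it was -0.0121 with 1 Mb, -0.0325 with protein-coding genes and -0.093 with region genes of at least 1 CPM, an alternative chosen after seeing the data, and -0.1497 to -0.1103 without 1 library. In H1047R against E545K it was 0.3684 with 5 Mb, 0.4921 with 1 Mb and 0.276 with protein-coding genes, and 0.1567 to 0.2043 without 1 library. Without division by exon length, EGFR made up 83.7% of receptor counts in E545K, 73.3% in H1047R and 73.5% in WT, and the ratio of ERRFI1 to EGFR was 0.191 in E545K, 0.156 in H1047R and 0.114 in WT.

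Of the 22 ubiquitination and endocytosis genes, 9 were called in H1047R against E545K, beside 16 with library totals and 14 each with the stricter filter and with protein-coding genes alone. With the replicate number as a block, 5, 4 and 6 of the 7 genes were called in E545K against WT, H1047R against WT and H1047R against E545K. Deviations from the genotype means had correlations of -0.0348 to 0.0227 between same-numbered libraries of different genotypes. The labels do not say whether the numbers pair libraries. A correlation over all tested genes, which also carries the counting noise of scarce genes, cannot decide it. ERBB4 had the fewest counts of the 7 genes, 67 to 404 in a library, and the widest intervals.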
